A study of Sus scrofa with 8 samples.

Results

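Toll-like receptors and their partners were read on islet arrays of neonatal pigs by 13 probe sets, out of 23999 probe sets other than controls in the deposited table, and stand for 7 of the 6765 genes that it names singly. The genes sought were 10: the receptors TLR2, TLR3, TLR4, TLR5, TLR6, TLR7 and TLR8, the co-receptors CD14 and LY96, and the adaptor MYD88. A probe set is several short DNA probes against one transcript, read together as a single intensity. It was taken when the array annotation gave it exactly 1 symbol and that symbol was on the list. By this rule 7 of the genes had a probe set. TLR4 had 5, CD14 and MYD88 had 2 each, and TLR2, TLR6, TLR8 and LY96 had 1 each. TLR3, TLR5 and TLR7 had none under their symbol and were not analysed here.

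Islets came from male Duroc and Large White cross piglets, 4 aged 3 days and 4 aged 7 days, each on an array of its own. Both ages were digested with collagenase and, by the methods, kept for 7 days in the same culture, so ages are those of the donor pigs. The medium held glucose, nicotinamide and isobutylmethylxanthine. The cells were not sorted, so an array reads endocrine cells together with the duct, vascular, stromal and immune cells that a preparation retains. The insulin gene INS was bright at both ages, at 24649 ± 2214 under the 3-day-old label and 23694 ± 4216 under the 7-day-old label (mean intensity ± SD, n = 4 each). IAPP, the gene of the islet amyloid peptide, was too dim in all 8 arrays to be tested.

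Toll-like receptors are membrane proteins that recognise microbial molecules and some products of injured tissue. TLR4 reads bacterial lipopolysaccharide, which CD14 hands over and which LY96, also called MD-2, holds against the receptor. TLR2 pairs with TLR6 to read lipopeptides, and TLR8 reads single-stranded RNA inside endosomes. MYD88 links all of these receptors to the kinases that release NF-kappa B and so switch on cytokine, chemokine and adhesion genes. The receptors are best known from macrophages, and TLR4 is also made by endothelial and stromal cells. In islet transplantation the pathway is studied for its part in inflammation of the graft.

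Ages are those of the deposited labels. The study lists TLR4, by the brightest probe set used here, in the opposite direction, as higher at 7 days. Whether the deposited labels or those of the study are exchanged was not tested, so every direction below is that of the label and not of a verified age. That list was chosen on these samples, so the difference in TLR4 is not independent evidence.

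Of the 13 probe sets, 11 reached the 20th percentile of the array (an intensity of 26.4 to 31.3) in at least 1 array and were tested. The 2 left out, the second probe sets of CD14 and MYD88, were below it in all 8 arrays. For the 11, a log2 difference subtracts the mean log2 intensity under the 3-day-old label from that under the 7-day-old label, tested by limma (two-sided, Benjamini-Hochberg adjusted over all 21574 probe sets tested). A probe set is called where the adjusted p is under 0.05. By this rule 3 were lower under the 7-day-old label and 0 were higher (27.3% lower, with 6 of the 11 at an unadjusted p under 0.05). Of all probe sets tested 5.47% were lower and 5.21% were higher. The 3 were 2 probe sets of TLR4 and the probe set of LY96. TLR4 alone gave 5 of the 11 probe sets, so shares of the 11 count 1 gene repeatedly. With 1 probe set per gene, 2 of 7 genes were lower (28.6%) and 0 higher. Of all genes tested 7.15% were lower and 5.03% higher. The 4 values of one age lay wholly below those of the other in 5 of the 11, where 10.3% of all probe sets tested were lower in this way and 21.2% did not overlap in either direction. Of the TLR4 probe sets 1 passed the filter by a single array labelled 3-day-old, and the probe set of TLR6 by 3 arrays of one age and 1 of the other, so that counts over the 11 lean on where the filter fell.

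**Figure D1:**
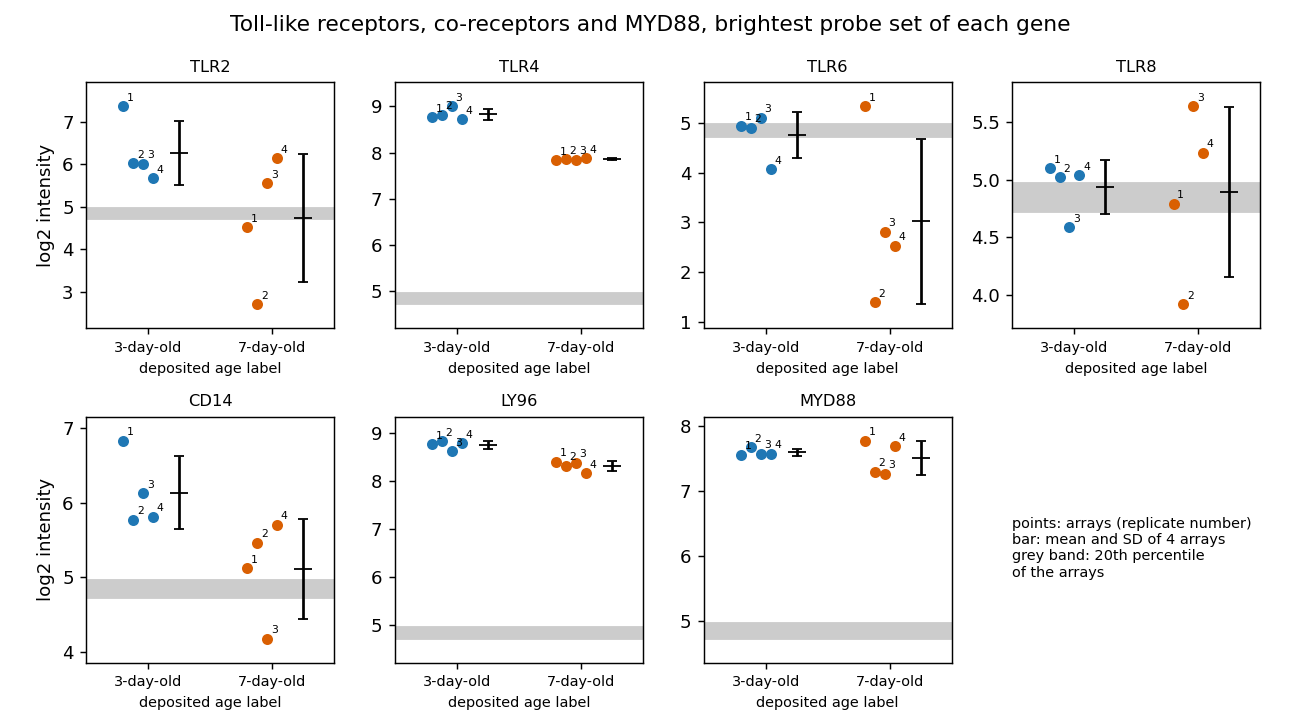
The log2 intensity (vertical axis, a separate scale in each panel) of the brightest probe set of TLR2, TLR4, TLR6, TLR8, CD14, LY96 and MYD88 in each of the 8 arrays, grouped by label, 1 numbered point per array, beside bars for the mean with SD (n = 4). The labels do not overlap for TLR4, LY96 and CD14, and the points of TLR6 and TLR8 lie on both sides of the grey band, which spans the 20th percentiles of the arrays.

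TLR4, the lipopolysaccharide receptor, was the only receptor here with a called probe set. Its brightest probe set, Ssc.12781.1.A2_at, had intensities of 435, 451, 514 and 422 under the 3-day-old label and of 229, 232, 231 and 235 under the 7-day-old label. The lowest array of the first label stood far above the highest of the second, and the second group spanned a narrow range. The log2 difference was -0.97 (standard error 0.087, adjusted p = 0.00385 from limma), which is 1.96-fold (95% interval 1.70 to 2.26) in favour of the 3-day-old label. Ssc.19703.1.S1_s_at had 258, 245, 243 and 172 under the 3-day-old label and 124, 109, 94.1 and 119 under the 7-day-old label. These groups did not overlap either, with replicate 4 of the 3-day-old label apart from the other 3 of its label. Its log2 difference was -1.03 (standard error 0.158, adjusted p = 0.0104 from limma), or 2.04-fold (95% interval 1.58 to 2.64). Both calls held in each fit with an array removed, where the highest adjusted p was 0.0178 and 0.0359.

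The other probe sets of TLR4 were dimmer and were not called. Ssc.12781.1.A1_s_at had 153, 139, 177 and 107 under the 3-day-old label and 66.4, 18.1, 109 and 75.5 under the 7-day-old label. Replicate 3 of the 7-day-old label reached the lowest array of the other label, so the groups overlapped, and replicate 2 was below the 20th percentile. Its log2 difference was -1.34 (95% interval -2.56 to -0.12, adjusted p = 0.147 from limma), and -0.79 without that replicate 2. Ssc.12781.1.A1_at had 123, 75.7, 87.8 and 84.8 under the 3-day-old label and 59.5, 70.9, 39.2 and 68.0 under the 7-day-old label. Here the groups did not overlap, but the gap between them was small. The log2 difference was -0.66 (95% interval -1.19 to -0.12, adjusted p = 0.112 from limma). The annotation gives both of these probe sets the same transcript record, and a probe set marked _s_at holds probes that can match more than one transcript. That limit holds for the called Ssc.19703.1.S1_s_at as well.

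Ssc.28998.1.A1_at, the dimmest of the TLR4 probe sets, was above the 20th percentile in 1 array only. It had 33.4, 3.11, 8.04 and 5.10 under the 3-day-old label and 14.9, 3.28, 6.63 and 18.1 under the 7-day-old label, with the labels mixed throughout. Its log2 difference was 0.12 (95% interval -1.82 to 2.05, adjusted p = 0.945 from limma), and its sign turned when single arrays were left out.

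The probe sets of TLR4 were also compared with each other, by the change between the labels of the log2 ratio of each pair within an array. In 10 pairs, 0 differed (exact permutation test over the 70 splits of the 8 arrays, two-sided, adjusted p from 0.629 to 0.771, with 0 at an unadjusted p under 0.05). The smallest p of this test is 0.0286. Between both called probe sets the ratio changed by 0.06 on the log2 scale (exact p = 0.657). Over 10 pairs 1 pair at that p could not pass the adjustment, so the count of 0 was nearly fixed by the design and does not show that the probe sets responded alike. The 4 pairs with the dimmest probe set rest on values mostly below the 20th percentile, and the SD of their log2 ratio reached 1.49.

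**Figure D2:**
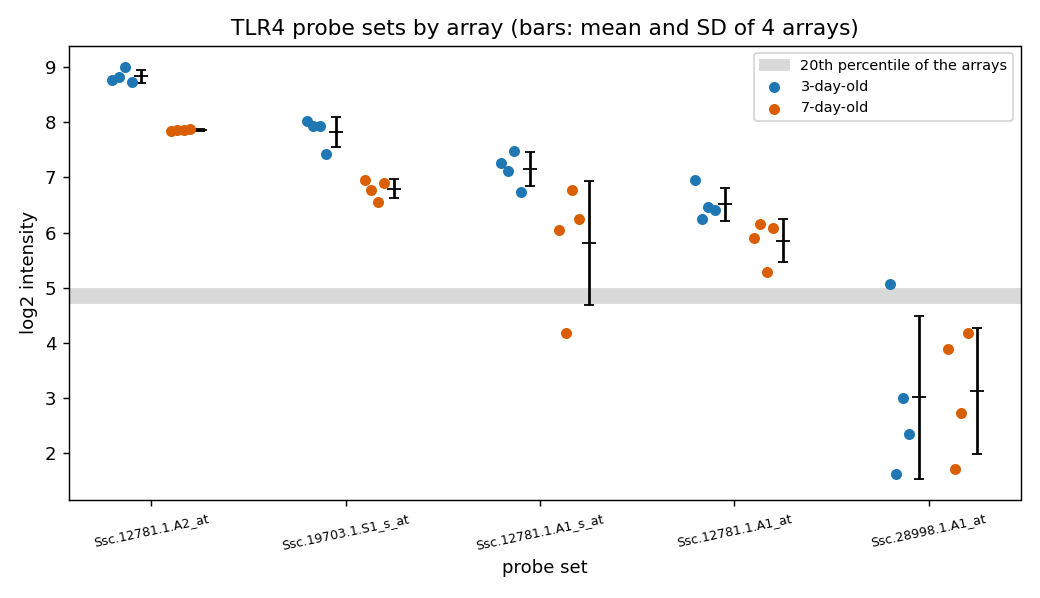
The log2 intensity (vertical axis) of the 5 probe sets of TLR4 (horizontal axis, brightest at the left) in each array, coloured by label, where bars are means with SD (n = 4) and a grey band spans the 20th percentiles. In the brightest pair of probe sets and in Ssc.12781.1.A1_at the labels do not overlap, and the dimmest lies below the band in all but 1 array.

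LY96, the protein that binds lipopolysaccharide at TLR4, had intensities of 432, 451, 393 and 438 under the 3-day-old label and 337, 318, 331 and 285 under the 7-day-old label, with no overlap. On the log2 scale the difference was -0.43 (standard error 0.091, adjusted p = 0.0269 from limma), or 1.35-fold (95% interval 1.17 to 1.56). The call was lost, with adjusted p up to 0.0732, on leaving out replicate 1, 2 or 4 of either label. Its size moved little, from -0.47 to -0.38 over the 8 arrays left out in turn.

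CD14, which delivers lipopolysaccharide to the receptor complex, had 114, 54.7, 69.9 and 56.2 under the 3-day-old label and 34.8, 44.2, 18.1 and 52.1 under the 7-day-old label for its brighter probe set. The labels did not overlap, with replicate 1 of the 3-day-old label highest and a small gap between the lowest array of that label and the highest of the other. The log2 difference of -1.02 was not called (95% interval -1.89 to -0.15, adjusted p = 0.127 from limma). In 1 array labelled 7-day-old the value was below the 20th percentile. The second CD14 probe set lay between 3.29 and 24.3 in all arrays and was not tested.

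MYD88, the shared adaptor, differed little between the labels. Its brighter probe set had 188, 204, 190 and 190 under the 3-day-old label and 218, 157, 153 and 206 under the 7-day-old label. The second label lay on both sides of the first and spread more widely. The log2 difference was -0.09 (95% interval -0.41 to 0.23, adjusted p = 0.721 from limma), so that a change of up to 1.33-fold towards the 3-day-old label, or of somewhat less towards the other, is within the interval. The second MYD88 probe set was between 0.574 and 27.2 and was not tested.

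The remaining receptors were dim. TLR2 had 166, 65.1, 64.9 and 51.0 under the 3-day-old label and 23.0, 6.55, 47.3 and 70.7 under the 7-day-old label. Replicate 1 of the 3-day-old label was the highest and replicate 2 of the 7-day-old label the lowest, and the labels overlapped. The log2 difference of -1.54 was not called (95% interval -3.28 to 0.21, adjusted p = 0.23 from limma). It was -0.86 without replicate 2 of the 7-day-old label and -1.01 with an offset of 16 before log2.

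TLR6, the partner of TLR2, had 30.7, 29.9, 34.4 and 16.8 under the 3-day-old label and 40.4, 2.63, 7.00 and 5.75 under the 7-day-old label. Replicate 1 of the 7-day-old label held the highest value of all 8 arrays and the other 3 of that label the lowest values. Its log2 difference was -1.74 (95% interval -3.53 to 0.05, adjusted p = 0.192 from limma). Without that array it was -2.51 and passed (adjusted p = 0.0268 from limma), without replicate 2 of the same label it was -1.20, and with an offset of 16 before log2 it was -0.69. In the RefSeq annotation of the pig (Sscrofa 11.1) TLR6 lies beside its close relative TLR1, and whether its probes also read TLR1 was not tested.

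TLR8, an endosomal receptor, had 34.2, 32.5, 24.1 and 32.9 under the 3-day-old label and 27.7, 15.1, 49.8 and 37.6 under the 7-day-old label, around the 20th percentile throughout. Arrays labelled 7-day-old held both the highest and the lowest value. The log2 difference was -0.04 (95% interval -0.86 to 0.77, adjusted p = 0.953 from limma), with a sign that changed with the array left out. RefSeq lists TLR7 as a synonym of this gene and also as a gene beside it.

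**Figure D3:**
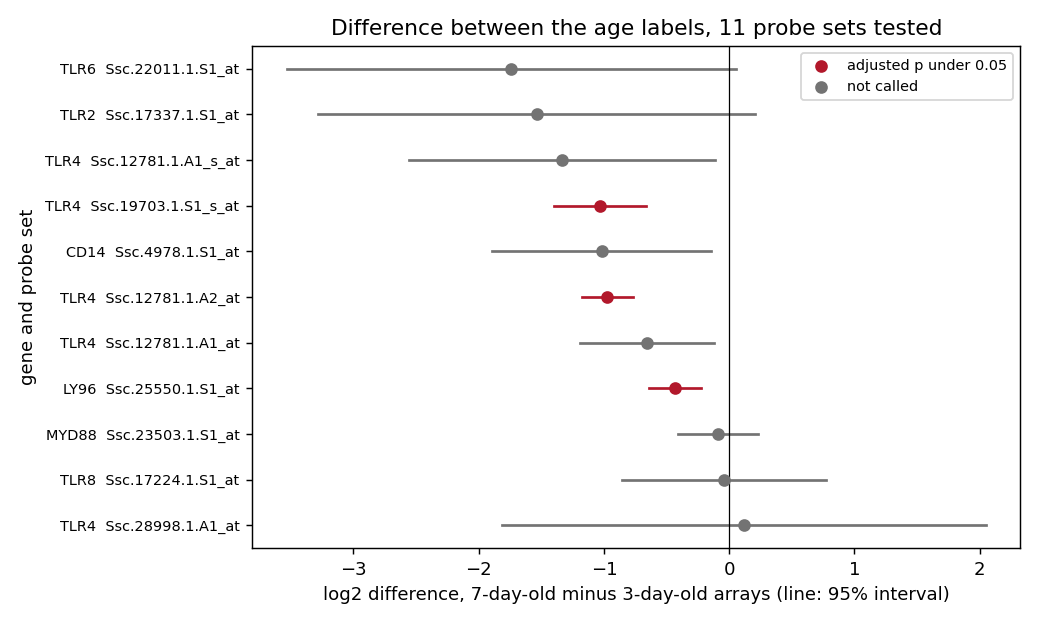
Log2 differences of the 11 tested probe sets (horizontal axis, 7-day-old label less 3-day-old label) with its 95% interval from limma, 1 line per probe set (vertical axis). The 3 probe sets with an adjusted p under 0.05 are coloured, and of the 11 only the dimmest probe set of TLR4 lies above 0, at 0.12.

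To set the receptor against its partners, the log2 ratio of TLR4 over each of the other 6 genes was compared between the labels within arrays, at the brightest probe set of each gene. Levels of different probe sets are not comparable, so only the change of their ratio between the labels was read. For dim probe sets that change also depends on how low values are treated. The differences of TLR2 and TLR6 shrank with an offset of 16 before log2. The ratio of TLR4 to MYD88 was lower by 0.88 on the log2 scale under the 7-day-old label and that of TLR4 to LY96 by 0.54, with no overlap between labels in either (exact permutation test, two-sided, p = 0.0286, the smallest this design allows, or 0.0857 adjusted over the 6 comparisons). Neither therefore passed after adjustment. The ratio of TLR4 to CD14 changed by 0.05 (exact p = 0.914), with an SD of the ratio of 0.51 and 0.66 in the respective groups. The ratios to TLR2, TLR6 and TLR8 changed by 0.57, 0.77 and -0.93 (exact p = 0.6, 0.4 and 0.114).

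Across the 13 probe sets, 3-day-old replicate 1 held the highest value in 5 and 7-day-old replicate 2 the lowest in 5. Among the called probe sets only Ssc.19703.1.S1_s_at was highest in the first of these arrays, and none was lowest in the second. By summed intensity 3-day-old replicate 1 was also highest for the leukocyte, B and T cell, and neutrophil and mast cell markers. It was highest too for the NF-kappa B and target gene lists described below. For the neutrophil and mast cell markers 7-day-old replicate 2 was the lowest. Both arrays likewise stood at the ends of the macrophage and dendritic cell markers. The summed intensity of 13 such genes was 2874 in 3-day-old replicate 1 and 1416 to 1750 in the other 3 arrays of its label. It was 998 in 7-day-old replicate 2 and 1086 to 1443 in the other 3 of that label. By mean the brightest of the 13 was SIRPA, at 490 and 437, which was not called. Of the 13 markers 1 was lower under the 7-day-old label (7.69%, where 7.15% of all genes tested were lower) and 0 were higher. The one was TYROBP, a signalling adaptor of myeloid cells, which differed by -2.25 on the log2 scale (limma, adjusted p = 0.0328). Its intensities under the 7-day-old label were 19.8, 18.2, 10.0 and 53.0, the first 3 below the 20th percentile. With an offset of 16 before log2 the difference was -1.59. Leaving out replicate 1, 2 or 3 of either label ended this call (adjusted p up to 0.0838 from limma), as did the methods' t-test. All 13 reached the 20th percentile in at least 1 array, and CD86 did so in 1 only. PTPRC, the common leukocyte antigen, belongs to the next list and also reached it in 1.

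Of 6 leukocyte genes 2 were lower under the 7-day-old label, LAPTM5 and LCP1, and 0 were higher. Without replicate 2 or 3 of the 3-day-old label, or replicate 1 or 3 of the 7-day-old label, there were 0, and without any other single array 1. ITGB2, of the same list, was higher under the 7-day-old label without overlap but not called (log2 difference 0.54, limma, adjusted p = 0.0512). The summed intensity of the 6 genes was 1697 to 2187 under the 3-day-old label and 1253 to 1503 under the other. The largest part of this sum was the called gene LCP1, with means of 989 and 657. Endothelial markers summed to 1542 to 2058 and 600 to 824 in the same order, and 4 of 9 were lower, among them PECAM1, an adhesion molecule of endothelial cells, which differed by -1.70 on the log2 scale (limma, adjusted p = 0.00331). Without 7-day-old replicate 2 the count was 2. TIE1, also among the 4, passed the filter only through arrays labelled 3-day-old, where it was higher. Its log2 difference was -3.41 but -1.75 with an offset of 16 before log2. Fibroblast and stellate cell markers summed to 28594 to 36177 and 19526 to 22379, and 4 of 9 were lower. Most of this sum was VIM, a filament protein of many cell types, with means of 20516 and 15200 and no call (log2 difference -0.44, limma, adjusted p = 0.0637). For the count of 4, leaving out any array but 3-day-old replicate 1 gave 2. Across all genes tested 7.15% were lower and 5.03% higher. In these bulk arrays fewer cells of a type and less RNA per cell cannot be told apart, and the part that these cells have in the values of TLR4, LY96 and CD14 was not tested.

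**Figure D4:**
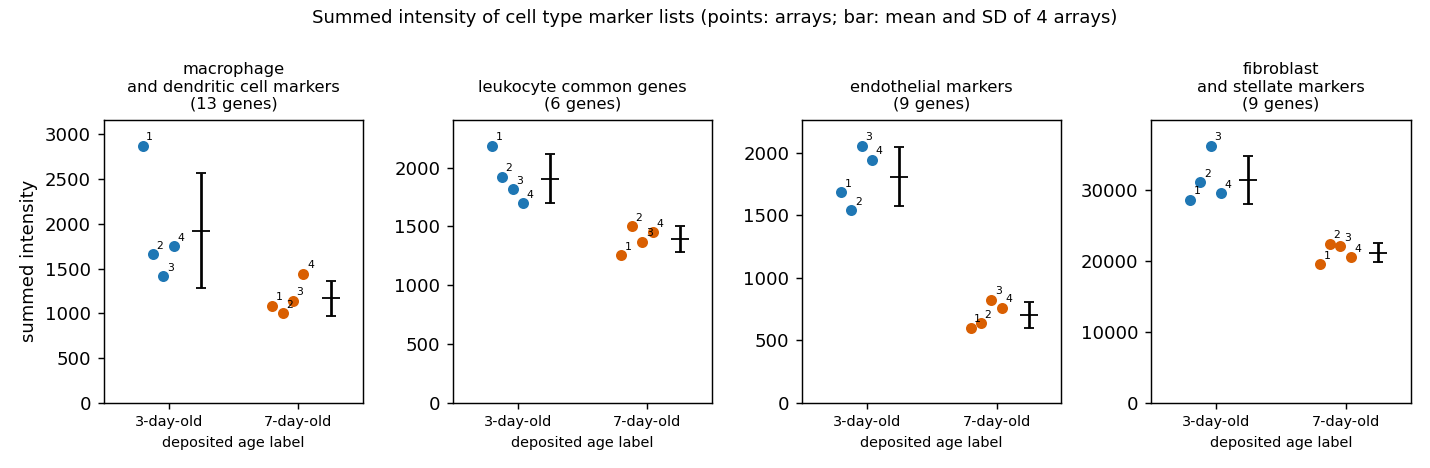
The summed intensity (vertical axis, from 0) of macrophage and dendritic cell markers, leukocyte common genes, endothelial markers and fibroblast and stellate cell markers in each array, grouped by label, as numbered points beside their mean and SD (n = 4). The labels do not overlap for leukocyte, endothelial and fibroblast genes, and 3-day-old replicate 1 is the highest for macrophage markers at 2874.

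Genes around the receptors were described at the brightest probe set of each gene. Among other Toll-like receptors and accessory proteins, 7 of 10 listed genes had a probe set, 5 were tested, 1 was lower and 0 were higher. The lower one was LY86, also called MD-1, the partner of the receptor-like protein CD180. It had 14.3, 23.4, 43.5 and 36.7 under the 3-day-old label and 1.28, 1.25, 2.29 and 8.07 under the 7-day-old label. Only 2 arrays reached the 20th percentile, both of the 3-day-old label, where the gene was higher, so it passed the filter through that label alone. Its fitted log2 change was -3.53 (limma, adjusted p = 0.018) but -1.21 with an offset of 16 before log2, and the call needed both replicate 3 of the 3-day-old label and replicate 2 of the 7-day-old label. CD180 and UNC93B1, which carries endosomal receptors to their compartment, were below the 20th percentile in all arrays. HSP90B1, the chaperone that folds these receptors, was bright at 6957 ± 128 and 7610 ± 302 (SD, n = 4 each). It was higher under the 7-day-old label without overlap but was not called (log2 difference 0.13, adjusted p = 0.296 from limma).

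Downstream of the receptors, of 8 adaptors and kinases 1 was lower, IRAK1, the kinase recruited by MYD88, with 1127 ± 45.4 and 911 ± 11.5 (SD, n = 4 each) a change of -0.31 on the log2 scale (limma, adjusted p = 0.0369). This call was lost in each of the 8 fits with an array removed, the highest adjusted p being 0.0957. The median log2 difference of the list was -0.16, against -0.02 over all genes tested, of which 7.15% were lower. Of 5 NF-kappa B and interferon regulatory factors tested, 1 was lower, with a median log2 difference of -0.52. It was NFKBIA, the inhibitor that NF-kappa B itself induces, which differed by -0.68 on the log2 scale (limma, adjusted p = 0.0199), a call lost without replicate 2 of either label.

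Of 14 tested target genes of the pathway 8 (57.1%) were lower under the 7-day-old label, 0 were higher and 6 were not called. Of all genes tested 7.15% were lower and 5.03% higher. The median log2 difference of the 14 was -0.98. Another 4 listed targets, CCL3L1, CCL5, IL12B and IFNB1, were below the 20th percentile in all arrays and were not tested. CXCL2, a neutrophil chemokine, had intensities of 4408, 3074, 2957 and 3022 under the 3-day-old label and of 1374, 1432, 1000 and 1109 under the 7-day-old label, a log2 change of -1.45 (limma, adjusted p = 0.0061). ICAM1, an adhesion molecule for leukocytes, differed by -1.16 on the log2 scale (limma, adjusted p = 0.00591). PTGS2, the inducible cyclooxygenase, differed by -3.15 on the log2 scale (limma, adjusted p = 0.0061). The cytokine TNF had 82.3, 97.1, 49.2 and 68.0 under the 3-day-old label and 38.6, 11.8, 3.31 and 7.63 under the 7-day-old label, where 3 of the 4 arrays were below the 20th percentile. Its fitted log2 difference was -2.80 (limma, adjusted p = 0.0422) but -1.62 with an offset of 16 before log2. TNF kept its call in only 1 of the 8 fits with an array left out. The 6 targets not called were CCL2, with a log2 difference of -1.44 (limma, adjusted p = 0.0598), IL6, with -0.88, and IL1B, CCL4, SOD2 and NOS2, with values between -0.38 and 0.18. The count of 8 fell to 3 without replicate 2 of the 3-day-old label and to 4 without its replicate 1, its replicate 3 or 7-day-old replicate 2. It was 5 without replicate 3 or 4 of the 7-day-old label, and 5 by the methods' t-test. The study's own lists hold PTGS2, CXCL2, ICAM1, CXCL8, IL1A and CCL2, as well as DCN and PECAM1, all in the opposite direction, as higher at 7 days. Those lists were chosen on these samples, and the target genes with earlier results of these data known. Neither the count of 8 nor the direction of these genes is therefore independent evidence. Of 12 endogenous ligands 1 was lower (8.33%), the proteoglycan DCN, also a fibroblast marker. HMGB1, a nuclear protein released by dying cells, differed by 0.07 on the log2 scale (limma, adjusted p = 0.613).

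**Figure D5:**
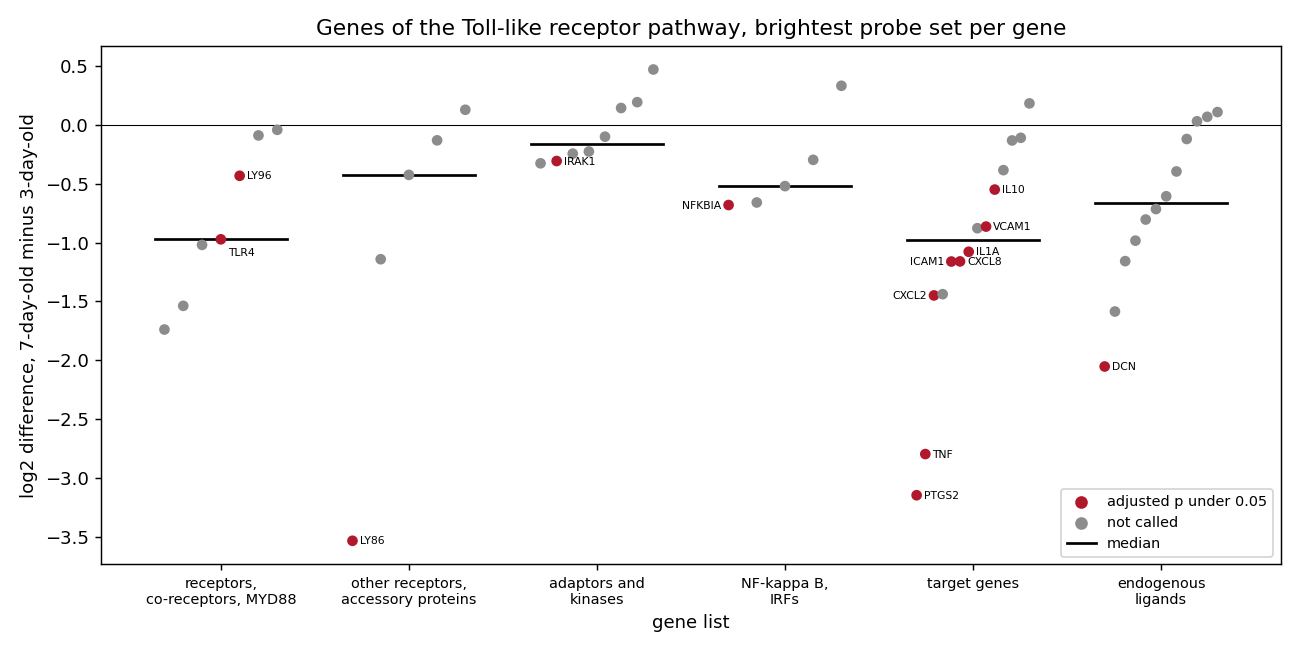
The log2 difference (vertical axis, 7-day-old label less 3-day-old label) of each gene tested in 6 lists of the Toll-like receptor pathway (horizontal axis), 1 point per gene at its brightest probe set, with the median of the list as a line. Genes with an adjusted p under 0.05 are coloured and named, and 8 of the 14 target genes are among them.

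The genes whose pattern over the 8 arrays was nearest to that of TLR4 were sought among 6544 other genes, by the root mean square difference of log2 values centred on the mean of each gene. The nearest was CHSY1, a chondroitin synthase, at 0.069, followed by MCAM, an adhesion molecule of vascular cells, at 0.070. GNG11, a G protein subunit, was at 0.085, the transcription factor KLF9 at 0.095 and FAM149A at 0.097, where the median over all genes was 0.534. All 5 were lower under the 7-day-old label, with log2 differences from -0.89 to -1.13, close to that of TLR4, as the measure requires.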

How the data were processed

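Islets of 4 pigs per age were measured on the Affymetrix porcine GeneChip, 1 array per pig. The deposited values are linear intensities, which the authors scaled to the same mean after trimming 2% at each end (500.1 in every array, medians 171.6 to 178.5). For the summary software, a name was not given in the sources used here. An additional amplification round was run where cRNA was low, in samples the methods do not name. Here intensities below 1 were set to 1 and put on the log2 scale. Control probe sets (124) were left out, and 21574 probe sets were kept, each in 1 or more arrays at or above the 20th percentile. Ages were compared with limma 3.58.1 in R 4.3.3 (lmFit, eBayes, no covariates). Figures used Python 3.11.15 and matplotlib 3.10.9.

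Symbols came from the platform annotation (1 symbol for 10069 probe sets, several for 198, none for 13732), and all 13 probe sets matched RefSeq by gene ID. The brightest tested probe set stood for its gene in list counts, 6545 genes in all. The naming rule took from each list at most 4 called genes, or at most 2 from a list with none called, and not all are printed. IL1B, CCL2, CCL4, IL6, SOD2 and NOS2, with VIM, HSP90B1, HMGB1, INS, IAPP, PTPRC, ITGB2, CHGA, SIRPA and CD86, were named after their values were seen. Further lists were counted too. Of islet hormones and endocrine markers 5 of 10 were higher, SCG2, SCG3, CHGB, PCSK1 and PCSK2. CHGA, a granin like 3 of these, was not called (log2 difference 0.27, limma, adjusted p = 0.584), nor were the hormones INS, GCG, SST and PPY. Of B and T cell markers 1 of 9 was lower, and of duct markers 2 of 6. Of neutrophil and mast cell markers 0 of 5 were called by limma, with 1 at an unadjusted p under 0.05. Of all genes tested 7.15% were lower and 5.03% higher. The study lists PCSK2, by the same probe set, in the opposite direction, as lower at 7 days. The members and lists were chosen with earlier results of these data known. The number of arrays limits the precision. Alternatives were no filter, a stricter filter (50th percentile in at least 4 arrays), the methods' t-test, an intensity trend with robust variances, median centring, quantile normalization, an offset of 16 before log2, weights for array quality, a block for the replicate number and each array left out.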

Additional observations from a re-analysis of the deposited data

Results flagged for a closer look

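In 3 of 26 groups of 4 arrays 1 value stood apart from the other 3, by the gap to its neighbour as a share of the group's range on the log2 scale. Chance alone flags about 1 in 20 such groups. For the TLR4 probe set Ssc.19703.1.S1_s_at the gap of 3-day-old replicate 4, at an intensity of 172, was 0.851 of the range. For TLR8 the gap of 3-day-old replicate 3, at 24.1, was 0.852 of the range. For the brighter MYD88 probe set the gap of 3-day-old replicate 2, at 204, was 0.868 of a range that was small, with a log2 gap of 0.10.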

How the results depend on the processing

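Both TLR4 probe sets called kept direction and call under every alternative in which they were tested, except the replicate number as a block. LY96 kept its direction throughout and lost its call under that block and in 6 of the 8 fits with an array left out. The stricter filter left 3 of the 13 probe sets and dropped the second TLR4 probe set, so 1 TLR4 probe set was called. Across the array 3491 probe sets were called with the intensity trend and robust variances, and 1008 to 1854 when single arrays were left out, where the number of member probe sets called was 2 to 3 and of TLR4 probe sets 2. The pairs of TLR4 probe sets gave 0 in each such fit, from a test that could hardly pass with fewer arrays. The replicate number as a block gave 0 called across the array, 0 among the 13 and 0 for TLR4 by limma, with 5264 across the array at an unadjusted p under 0.05. For TLR4 the adjusted p was then 0.0576 and 0.0678, and for LY96 0.113. The numbers gave no sign of pairing, with residual correlations of -0.0135 to 0.00487 between equal numbers, and 0 of 8 arrays correlated best with their own number. Results that reversed were all far from the threshold. The log2 difference of TLR8 went to 0.063 after quantile normalization and 0.0020 with the offset of 16, and ran from -0.29 to 0.28 with single arrays left out, above 0 on leaving out replicate 1 of the 3-day-old label (0.012) or replicate 2 of the other. That of the dimmest TLR4 probe set went to -0.015 with the offset and ran from -0.34 to 0.80 with single arrays left out, below 0 on leaving out replicate 2 or 4 of the 3-day-old label, or replicate 1 or 4 of the other. The cause was not tested. Signal near background limits what the TLR2, TLR6 and TLR8 probe sets can show.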
